A study of Mus musculus with 9 samples.

Results

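The genes described here are those that the deposited table assigns to the pathway named Pyrimidine metabolism, a KEGG category, and not to Cell cycle or DNA replication. The rule gave 59 of the 21899 genes of the table, and leaving out genes of the other 2 pathways removed 0 of them. Of the 59 genes, 49 carry at least 1 more pathway entry and 32 also belong to Purine metabolism, since many nucleotide enzymes accept both kinds of base. The RNA came from N2a (Neuro-2a) cells, a neuroblastoma line of the mouse, for which the labels give neuroblast as the cell type and no treatment. All 3 groups carried a short hairpin RNA, shlucif against luciferase as the control and shArf1-1 or shArf1-2 against Arf1, a small GTPase of vesicle traffic, and each group had 3 libraries. The labels do not say whether the libraries of a group came from separate cultures or infections, or whether the cells were clones, so p-values measure the spread between libraries, which may be technical. Where both hairpins are pooled as Arf1-deficient, that spread also holds the difference between the hairpins.

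The question was how the genes of pyrimidine synthesis, salvage and breakdown were expressed in control and Arf1-deficient cells. Cells make UMP de novo from glutamine, bicarbonate and aspartate, or salvage uridine, cytidine and thymidine with nucleoside kinases. UMP is phosphorylated to UTP, amidated to CTP, reduced to deoxynucleotides by ribonucleotide reductase and methylated to dTMP by thymidylate synthase. Breakdown runs the other way, through phosphatases, nucleoside phosphorylases and the opening of the pyrimidine ring, and proliferating cells are known to rely on the synthetic steps.

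Libraries held between 11182479 and 15594615 counts. FPKM is the count per length of the gene and depth of the library, without further scaling. The scaled CPM and the edgeR fits given below also use TMM factors. These were 0.962 to 0.983 with shlucif and 1.01 to 1.03 in the Arf1-deficient libraries. Beside scaled CPM, FPKM values and their sums therefore lean slightly upward in Arf1-deficient libraries. The targeted gene, Arf1, had a mean of 324 FPKM in shlucif libraries (SD 6.72, n = 3), against 128 FPKM for shArf1-1 (SD 1.73, n = 3) and 165 FPKM for shArf1-2 (SD 6.92, n = 3). The groups also differed in markers of other cells. The summed level of 18 macrophage markers was 305 to 369 CPM (counts relative to library depth) in the shlucif libraries. It was 1.61 to 2.76 CPM with shArf1-1 and 2.60 to 3.32 CPM with shArf1-2. Of the 15 markers tested, 14 were lower in Arf1-deficient cells, beside 32.9% of all genes tested. These 14 passed the filter on low counts through the shlucif libraries, where they were high, so their direction was set in part by that filter. Aif1, Itgam, C1qa, C1qb, C1qc, Ctss and Cx3cr1 were at 0 in all 6 Arf1-deficient libraries. Of these, Ctss had 564 to 649 counts with shlucif and Itgam 26 to 32, while Aif1, C1qa and Cx3cr1 had 5 counts or fewer there as well. Mrc1 was the 1 marker that was higher (log2 fold change 1.11, edgeR adjusted p = 0.0262), from 4 to 9 counts with shlucif. The summed level of 14 neuroblastoma markers was 2254 to 2295 CPM with shlucif, 4262 to 4516 CPM with shArf1-1 and 3782 to 3992 CPM with shArf1-2. Of the 14, 12 were higher in Arf1-deficient cells, beside 31.6% of all genes tested. These markers move with every difference from shlucif given here, and their part in the results was not tested. In such bulk libraries, fewer cells of a type and less RNA per cell cannot be told apart.

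Both hairpins are designed against the Arf1 transcript, and their target sequences are shown since several genes differed between them. The 21 bases are, 5′ to 3′:
shArf1-1: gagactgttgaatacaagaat
shArf1-2: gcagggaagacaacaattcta
Neither sequence had a full match in any of the 369 annotated transcripts of the pyrimidine genes. Among all annotated transcripts, both matched Arf1 and AC127331.2 in full, and shArf1-2 also matched Gm19587. Partial matches were not searched.

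Of the 59 genes, 46 had enough counts to be tested. Between Arf1-deficient and shlucif cells, 36 of the 46 passed an adjusted p of 0.05, 27 of them higher and 9 lower. Over all 12448 genes tested, 64.5% passed, 31.6% higher and 32.9% lower. The median log2 fold change of the 46 genes was 0.27, with a range from -1.34 to 1.78, while the median of all genes was 0.0033. With shArf1-1 alone 40 genes passed, 31 higher and 9 lower, beside 67.5% of all genes (33.1% higher and 34.4% lower). With shArf1-2 alone 35 passed, 25 higher and 10 lower, beside 63.4% of all genes (30.9% higher and 32.6% lower). Both comparisons use the same shlucif libraries. In scaled CPM, the 6 Arf1-deficient libraries were all above the 3 controls in 25 genes and all below them in 8, beside 58.1% of all genes without overlap in either direction. For shArf1-1 these numbers were 31 and 8, beside 69.4% of all genes, and for shArf1-2 they were 25 and 10, beside 67.8%.

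Most changes were small. At least 1.5-fold was reached by 12 of the 46 genes, 7 higher and 5 lower, beside 29.0% of all genes (12.3% higher and 16.7% lower). The group of 13 untested genes held between 0 and 17 counts in each library, among them Nme3, Nt5c1b, Entpd4 and Pnp2, which were at 0 throughout, and Ak9, Nt5e, Nt5el, Entpd8, Entpd4b and Nme2. Of the exonic bases of Nme3, 87.1% overlap Mrps34 on the same strand and 65.9% Mapk8ip3 on the other. For Entpd4, 30.4% overlap genes of the other strand. How reads in such overlaps were counted is not stated, so the 0 of these 2 genes need not mean absent RNA.

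**Figure D1:**
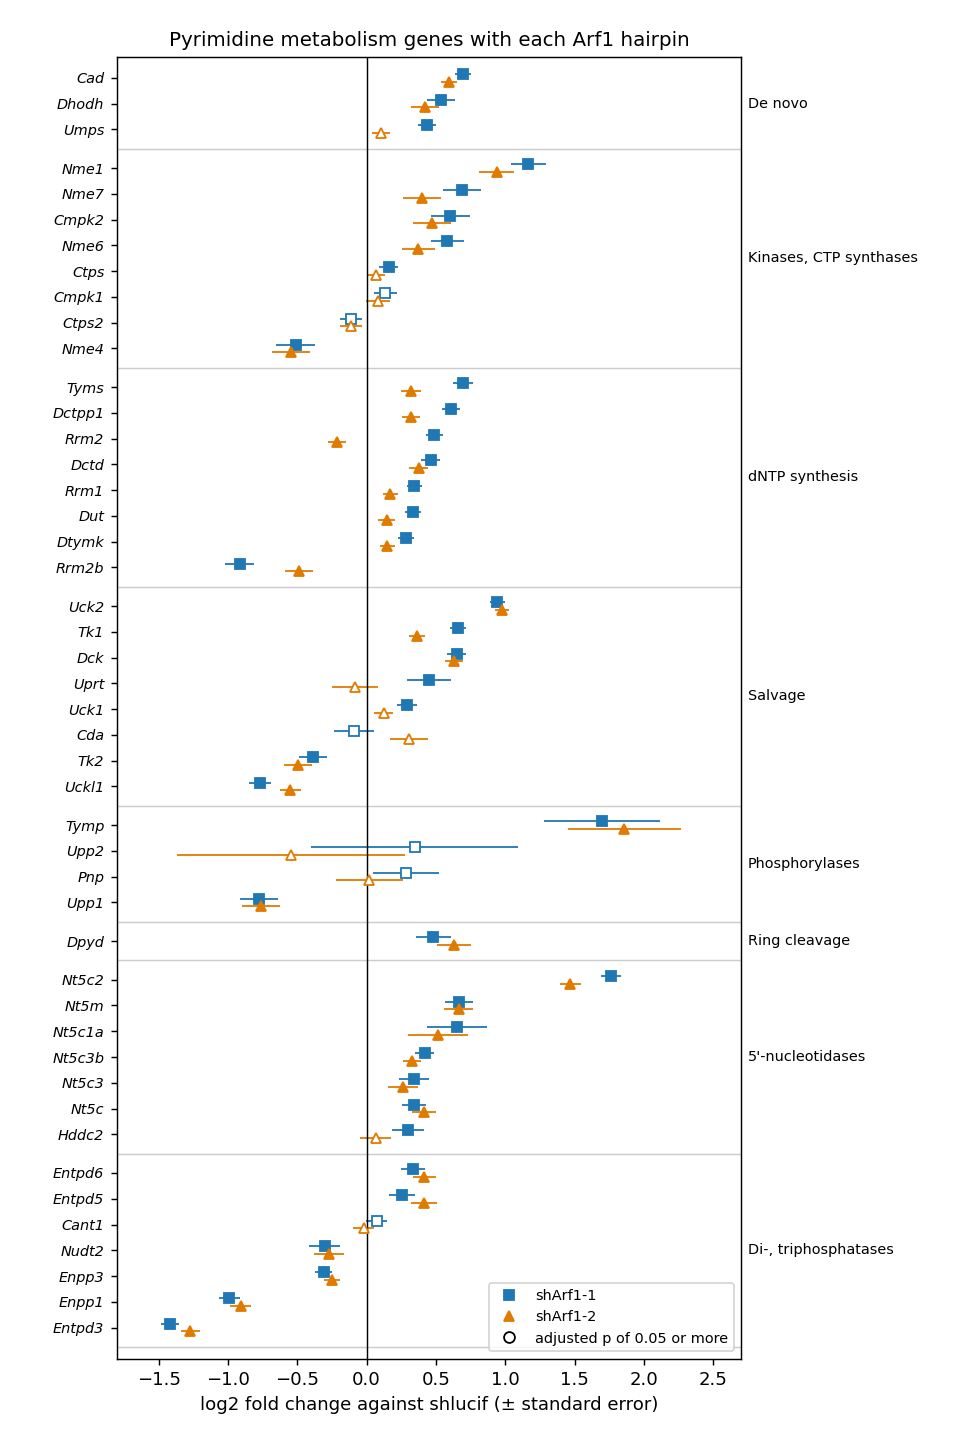
Log2 fold change against shlucif (x axis, edgeR, points with standard errors) for each of the 46 tested pyrimidine genes with shArf1-1 (squares) and shArf1-2 (triangles), grouped by role. Open symbols have an adjusted p of 0.05 or more. De novo and 5′-nucleotidase genes lie to the right of 0 with both hairpins, while Entpd3 and Enpp1 lie furthest to the left.

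De novo synthesis is encoded by 3 genes, and all 3 were higher in Arf1-deficient cells, beside 31.6% of all genes. Their median log2 fold change was 0.48. Cad encodes the protein with the first 3 enzyme activities of the pathway, among them carbamoyl phosphate synthetase, which is the regulated step. It lies on the plus strand of chromosome 5 of GRCm38 from 31054780 to 31078479. Cad was at 29.0, 28.2 and 26.4 FPKM in the shlucif libraries, 43.8, 51.0 and 45.7 FPKM with shArf1-1, and 45.6, 42.2 and 44.8 FPKM with shArf1-2. Every Arf1-deficient library was above every control, and the hairpins overlapped. The log2 fold change was 0.65 (standard error 0.06, edgeR adjusted p = 2.46e-08).

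Dhodh, the mitochondrial enzyme that oxidises dihydroorotate, was lower in level than Cad per length, at 2.99, 3.73 and 3.04 FPKM with shlucif, 4.64, 5.36 and 4.70 FPKM with shArf1-1, and 4.84, 4.19 and 4.66 FPKM with shArf1-2. Every Arf1-deficient library was above every control for Dhodh, and the hairpins overlapped. The log2 fold change was 0.48 (standard error 0.10, edgeR adjusted p = 2.92e-04). Umps, which converts orotate to UMP, was at 19.6, 17.9 and 18.3 FPKM with shlucif, 25.6, 25.9 and 26.7 FPKM with shArf1-1, and 20.8, 20.4 and 21.8 FPKM with shArf1-2. The shArf1-1 libraries stood above both other groups. The shArf1-2 libraries lay just above shlucif in FPKM and overlapped with shlucif in scaled CPM. The change of Umps was 0.43 with shArf1-1 (edgeR adjusted p = 4.87e-07) and 0.10 with shArf1-2 (adjusted p = 0.168), and the difference of -0.33 between the hairpins passed the threshold (adjusted p = 5.15e-04). The pooled change of 0.28 (adjusted p = 0.0134) did not pass without shlucif replicate 2 (adjusted p = 0.0708) or replicate 3 (adjusted p = 0.0509). Summed over the 3 genes, the level was 47.7 to 51.5 FPKM with shlucif, 74.0 to 82.3 FPKM with shArf1-1 and 66.8 to 71.3 FPKM with shArf1-2.

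Of the 8 salvage genes, 4 were higher, 2 were lower and 2 did not pass the threshold. Over all genes, 31.6% were higher and 32.9% lower. The change was uneven among enzymes that share a substrate. Uck2, the more active of the uridine-cytidine kinases, was at 35.2, 34.1 and 35.1 FPKM with shlucif, 67.1, 69.5 and 71.8 FPKM with shArf1-1, and 73.8, 67.7 and 74.3 FPKM with shArf1-2. The Arf1-deficient libraries were far above the controls beside the spread within each group, and the hairpins overlapped. The log2 fold change was 0.96 (standard error 0.05, edgeR adjusted p = 9.56e-12), with a difference of 0.03 between the hairpins (adjusted p = 0.736). Uck1, its paralog, was at 22.9 FPKM with shlucif, 29.1 FPKM with shArf1-1 and 26.2 FPKM with shArf1-2 (means, n = 3), a log2 fold change of 0.21 (edgeR adjusted p = 0.0195). Taken singly, the hairpins gave a call for Uck1 with shArf1-1 (log2 fold change 0.29) and none with shArf1-2. The pooled call for Uck1 was lost without shlucif replicate 2 (adjusted p = 0.119).

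Uckl1, a uridine-cytidine kinase-like gene, changed in the other direction. Its values were 13.4, 12.5 and 12.8 FPKM with shlucif, 7.30, 8.65 and 7.65 FPKM with shArf1-1, and 9.59, 9.21 and 8.97 FPKM with shArf1-2. All 6 Arf1-deficient libraries were below the controls, and the log2 fold change was -0.65 (standard error 0.08, edgeR adjusted p = 1.02e-06). Of its exonic bases, 9.9% overlap genes on the other strand, and whether counting used strand is not stated, so reads from the opposite strand cannot be set apart. Within a library, the FPKM of Uck2 was 2.62 to 2.74 times that of Uckl1 with shlucif, 8.03 to 9.39 times with shArf1-1 and 7.35 to 8.28 times with shArf1-2.

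The thymidine kinases also moved apart. Tk1, the cytosolic enzyme that is known to follow the S phase of the cell cycle, was at 24.6, 22.8 and 23.8 FPKM with shlucif, 39.9, 39.4 and 37.5 FPKM with shArf1-1, and 33.6, 31.3 and 31.3 FPKM with shArf1-2. Tk1 rose by 0.66 with shArf1-1 against 0.36 with shArf1-2, and their difference of -0.30 had an edgeR adjusted p of 2.92e-04. Tk2, the mitochondrial thymidine kinase, fell by 0.44 in log2 units (standard error 0.09, edgeR adjusted p = 1.81e-04), from 7.01, 6.68 and 6.43 FPKM with shlucif to between 4.95 and 5.43 FPKM in the 6 Arf1-deficient libraries. The ratio of Tk1 to Tk2 in FPKM was 3.42 to 3.71 with shlucif and 6.22 to 7.78 in the Arf1-deficient libraries.

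Dck, which phosphorylates deoxycytidine, rose by 0.64 (standard error 0.07, edgeR adjusted p = 7.37e-08), from 16.8, 18.5 and 17.4 FPKM with shlucif to between 26.4 and 31.8 FPKM in the Arf1-deficient libraries. Its rise was 0.65 with shArf1-1 and 0.63 with shArf1-2. Cda, cytidine deaminase, did not pass the threshold with either hairpin, with log2 fold changes of -0.09 and 0.30 (edgeR adjusted p = 0.581 and 0.0546). Uprt, named for its likeness to uracil phosphoribosyltransferase, was higher with shArf1-1 (log2 fold change 0.45, edgeR adjusted p = 0.0133), and with shArf1-2 its value was -0.08 (adjusted p = 0.672). The first call was lost without shlucif replicate 2 (adjusted p = 0.0587) or shArf1-1 replicate 1 (0.0525). The salvage genes summed to 129 to 135 FPKM with shlucif, 192 to 195 FPKM with shArf1-1 and 185 to 192 FPKM with shArf1-2.

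**Figure D2:**
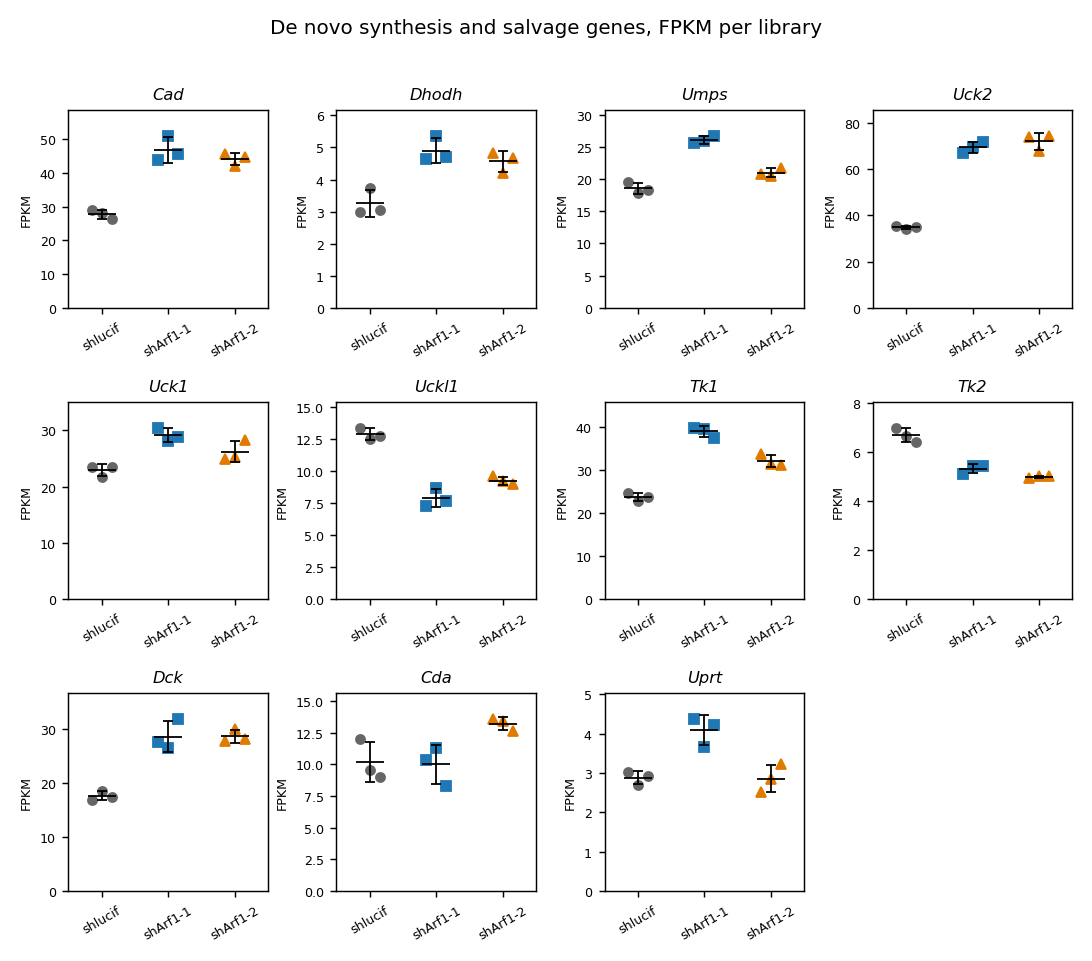
FPKM in each library (y axis from 0) of the 3 de novo genes and the 8 salvage genes, by hairpin group (x axis). Points are libraries and black bars are the mean ± SD of 3. Uck2 is 34.1 to 35.2 in the controls and 67.1 to 74.3 in the Arf1-deficient libraries, while Uckl1 and Tk2 are lower there.

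The kinases and CTP synthases that carry UMP on to UTP and CTP had 11 genes, of which 8 were tested, and 4 were higher, 1 lower and 3 did not pass. The share past the threshold was 62.5%, beside 64.5% of all genes. Cmpk1, the main UMP-CMP kinase of the cytosol, and the CTP synthases Ctps and Ctps2 had log2 fold changes of 0.11, 0.11 and -0.11 (edgeR adjusted p = 0.256, 0.131 and 0.183). Ctps passed with shArf1-1 alone (0.16), a call lost in 6 of 17 alternatives, and not with shArf1-2. Its pooled change passed with library size scaling (edgeR adjusted p = 0.0207) and with limma on FPKM (adjusted p = 0.0238 and 0.0235). Cmpk1 and Ctps2 passed with neither hairpin. The genes that rose were the nucleoside diphosphate kinase family members Nme1 (1.05), Nme7 (0.55) and Nme6 (0.48) and the mitochondrial kinase Cmpk2 (0.54), with edgeR adjusted p between 8.63e-07 and 1.82e-03. Nme1 was at 3.10, 3.13 and 3.03 FPKM with shlucif, 6.86, 6.40 and 8.21 FPKM with shArf1-1, and 6.61, 7.05 and 5.03 FPKM with shArf1-2. Nme1 shares 12.5% of its exonic bases, and Nme2 48.9%, with a readthrough gene on the same strand, and Nme2 held only 2 to 14 counts, so the split of reads among them is uncertain. Nme7 shares 13.0% of its exonic bases with genes of the other strand. Nme4, which encodes a mitochondrial diphosphate kinase, fell by 0.53 (edgeR adjusted p = 1.67e-03), and its shlucif and Arf1-deficient libraries overlapped in FPKM.

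Deoxynucleotide and thymidylate synthesis held 8 genes, all tested. Of these, 6 were higher and 1 was lower in Arf1-deficient cells, beside 31.6% and 32.9% of all genes. This role also held most of the pyrimidine genes that differed between the hairpins. Between shArf1-2 and shArf1-1, 10 of the 46 pyrimidine genes passed the threshold, 9 lower and 1 higher with shArf1-2, beside 14.4% of all genes (7.46% lower and 6.98% higher). The libraries of the hairpins did not overlap in 19 of the 46 genes, with shArf1-2 lower in 15 and higher in 4, beside 29.9% of all genes. Of these 10, 6 belong to deoxynucleotide synthesis (of 8 tested), 2 to salvage (of 8), 1 to de novo synthesis (of 3) and 1 to breakdown (of 19). Arf1 itself was lower with shArf1-1 than with shArf1-2, by 0.34 on the log2 scale, and 8 of the 14 neuroblastoma markers were lower with shArf1-2. Between the hairpins 0 of 15 macrophage markers passed in edgeR. Of the 18 listed, 14 held 3 counts or fewer in every shArf1-1 library, and 14 in every shArf1-2 library. At such counts the test can say little on whether these markers differed. The part of Arf1 or of the markers in these differences was not tested.

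Ribonucleotide reductase is built from a large subunit, Rrm1, and a small subunit, either Rrm2, which is made in S phase, or Rrm2b, which p53 is known to induce and which serves resting cells. Rrm2 lies on chromosome 12 (plus strand, 24708241 to 24714146) and Rrm2b on chromosome 15 (minus strand, 37923952 to 37961318). Rrm2 was at 39.3, 40.9 and 36.7 FPKM with shlucif, 54.6, 53.2 and 62.4 FPKM with shArf1-1, and 34.8, 34.1 and 37.0 FPKM with shArf1-2. With shArf1-1 every library was above the controls, and with shArf1-2 the libraries lay at or below the lower end of the controls, with an overlap in FPKM. Rrm2 changed by 0.49 with shArf1-1 (edgeR adjusted p = 2.27e-08) and by -0.21 with shArf1-2 (adjusted p = 4.45e-03), and the hairpins differed by -0.70 (standard error 0.06, adjusted p = 1.29e-09). It was the single pyrimidine gene past the threshold in opposite directions. The fall with shArf1-2 did not pass with library size scaling (-0.14, adjusted p = 0.0552) or with limma on FPKM (adjusted p = 0.0762 and 0.0750), while the difference between the hairpins passed in every setting tried. Pooling both hairpins gave 0.18 (adjusted p = 0.528).

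Rrm2b was at 4.15, 4.86 and 4.47 FPKM with shlucif, 2.87, 1.88 and 2.62 FPKM with shArf1-1, and 3.44, 3.50 and 3.15 FPKM with shArf1-2. The 3 groups did not overlap, with shArf1-1 lowest. The log2 fold change was -0.92 for shArf1-1 against -0.49 for shArf1-2, and their difference of 0.43 had an edgeR adjusted p of 6.83e-03, the single case with a higher level with shArf1-2. Rrm2b shares 8.0% of its exonic bases with a gene of the other strand. In FPKM, Rrm2 was 8.20 to 9.47 times Rrm2b with shlucif, 19.0 to 28.3 times with shArf1-1 and 9.77 to 11.7 times with shArf1-2. Rrm1 was at 25.6, 26.0 and 24.6 FPKM with shlucif, 33.6, 31.5 and 35.2 FPKM with shArf1-1, and 31.4, 29.0 and 29.6 FPKM with shArf1-2. It rose by 0.34 and 0.17 with the hairpins (edgeR adjusted p = 5.36e-07 and 5.06e-03). The rise with shArf1-2 did not pass without shArf1-2 replicate 1 (0.13, adjusted p = 0.0564).

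Tyms, thymidylate synthase, was at 6.59, 6.91 and 7.24 FPKM with shlucif, 11.7, 11.5 and 11.7 FPKM with shArf1-1, and 8.36, 9.53 and 9.30 FPKM with shArf1-2. The groups did not overlap, and shArf1-2 lay between the other two. Its changes were 0.69 and 0.32 with a difference of -0.38 (edgeR adjusted p = 3.07e-04). Dctpp1, which hydrolyses dCTP, had the same order, with means of 88.1, 140 and 116 FPKM and a difference of -0.29 (edgeR adjusted p = 1.42e-03). Dut, which removes dUTP and supplies dUMP to thymidylate synthase, was at 49.1, 64.3 and 57.0 FPKM (means of shlucif, shArf1-1 and shArf1-2), with a difference of -0.19 (edgeR adjusted p = 0.0267). Its pooled rise of 0.24 had an edgeR adjusted p of 4.83e-03, and of 0.0540 without shlucif replicate 2. Dctd, dCMP deaminase, and Dtymk, thymidylate kinase, rose by 0.42 and 0.22 (edgeR adjusted p = 2.08e-05 and 2.71e-03), and their differences between the hairpins, -0.08 and -0.14, did not pass (adjusted p = 0.452 and 0.104).

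**Figure D3:**
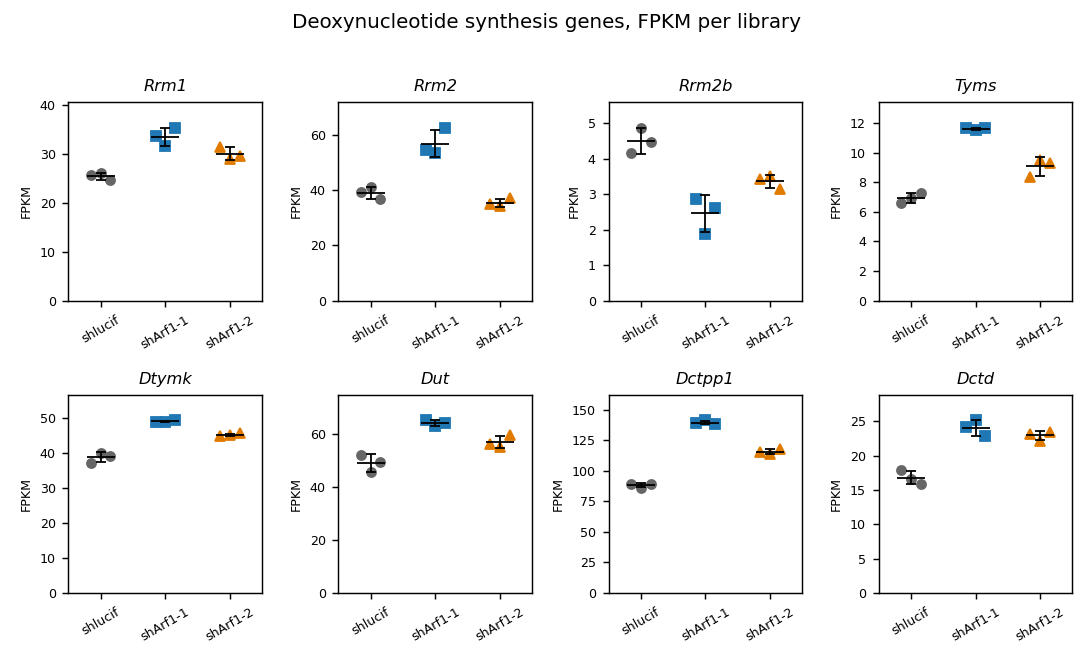
FPKM in each library (y axis from 0) of the 8 genes of deoxynucleotide and thymidylate synthesis, by hairpin group (x axis), with points for libraries and black bars for the mean ± SD of 3. Rrm2 is 53.2 to 62.4 with shArf1-1 and 34.1 to 37.0 with shArf1-2, and Rrm2b is lowest with shArf1-1.

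The stretches before the start sites of Rrm2 and Rrm1, the subunits whose fitted changes with shArf1-2 were -0.21 and 0.17, are shown with the CCAAT box in capitals. They are the 250 bases before the RefSeq gene start in GRCm38.p6, 5′ to 3′ on the gene's strand. The Rrm2 stretch is chr12:24708004-24708253 on the plus strand and the Rrm1 stretch is chr7:102441445-102441694 on the plus strand.
Rrm2: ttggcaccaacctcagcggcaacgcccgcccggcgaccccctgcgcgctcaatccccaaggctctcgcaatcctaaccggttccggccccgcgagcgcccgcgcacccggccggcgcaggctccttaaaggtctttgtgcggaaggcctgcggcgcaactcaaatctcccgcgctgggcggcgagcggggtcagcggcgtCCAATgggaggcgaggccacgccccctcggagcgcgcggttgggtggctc
Rrm1: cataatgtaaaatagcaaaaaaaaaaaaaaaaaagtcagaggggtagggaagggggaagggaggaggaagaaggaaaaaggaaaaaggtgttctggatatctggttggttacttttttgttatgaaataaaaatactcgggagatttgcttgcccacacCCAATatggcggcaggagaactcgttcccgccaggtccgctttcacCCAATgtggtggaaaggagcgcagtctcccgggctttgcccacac
The CCAAT word begins 50 bases before the start of Rrm2, and 91 and 45 bases before that of Rrm1. Searched on both strands in windows of 300 bases (250 before and 50 after the start), CCAAT was in 20 of the 53 genes with a window, 37.7%, beside 41.1% of all 27025 genes with a window, each counted once over its windows. The words TTTCCCGC, TTTGGCGC, TTTCGCGC and TTTGCCGC, forms of the E2F site, were in 1 of the 53 genes (Upp2), beside 2.6% of all genes. The E-box CACGTG was in 6 of the 53 (Dtymk, Entpd3, Entpd4b, Nme1, Nt5c2 and Tyms), 11.3%, beside 8.09% of all genes. A word match is a description of the letters and not a binding site. None of these words contains another.

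Of the 29 breakdown genes, 19 were tested, and 10 were higher, 5 lower and 4 did not pass. The share past the threshold was 78.9%, beside 64.5% of all genes. The summed level of all 29 was 189 to 200 FPKM with shlucif, 191 to 198 FPKM with shArf1-1 and 191 to 199 FPKM with shArf1-2, so the groups overlapped in the sum. The 5′-nucleotidases, which remove the phosphate from nucleoside monophosphates, summed to 66.7 to 71.8 FPKM with shlucif and 93.9 to 107 FPKM in the Arf1-deficient libraries. The nucleoside di- and triphosphatases summed to 113 to 119 FPKM with shlucif and 81.7 to 88.5 FPKM in the Arf1-deficient libraries. Much of the second difference is Entpd3, with means of 40.3, 15.7 and 17.6 FPKM in shlucif, shArf1-1 and shArf1-2, and the sums were not tested.

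Of the 7 tested 5′-nucleotidase genes, 6 were higher and 0 lower, beside 31.6% and 32.9% of all genes, with a median of 0.38. Nt5c2, a cytosolic nucleotidase that prefers IMP and GMP, lies on the minus strand of chromosome 19 from 46883317 to 47015153. It was at 2.38, 2.65 and 2.31 FPKM with shlucif, 8.76, 8.01 and 9.03 FPKM with shArf1-1, and 7.29, 7.0 and 7.03 FPKM with shArf1-2. The 3 groups did not overlap, and counts of 347 to 391 with shlucif became 989 to 1555 in Arf1-deficient cells. The log2 fold change was 1.62 (standard error 0.10, edgeR adjusted p = 6.91e-11), and the hairpins differed by -0.29 (adjusted p = 2.38e-03). Of the exonic bases of Nt5c2, 5.2% overlap genes on the other strand, among them Ina, and reads from that strand cannot be set apart. An Nt5c2 stretch with its CACGTG word in capitals, 194 bases before an annotated start, is shown beside that of Tyms, where the word begins 61 bases before the start. Of 7 RefSeq start windows of Nt5c2 this is the one with the match, and it was shown for that reason. Its start lies inside the gene, and the window at the outermost start, chr19:47015125-47015424, does not hold the word. Both printed stretches are on the minus strand, at chr19:46969569-46969818 and chr5:30073626-30073875 of GRCm38.p6.
Nt5c2: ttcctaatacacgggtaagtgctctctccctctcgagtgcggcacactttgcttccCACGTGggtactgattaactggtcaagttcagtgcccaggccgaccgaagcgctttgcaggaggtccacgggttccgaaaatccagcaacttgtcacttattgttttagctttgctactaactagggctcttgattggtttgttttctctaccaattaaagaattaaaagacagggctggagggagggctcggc
Tyms: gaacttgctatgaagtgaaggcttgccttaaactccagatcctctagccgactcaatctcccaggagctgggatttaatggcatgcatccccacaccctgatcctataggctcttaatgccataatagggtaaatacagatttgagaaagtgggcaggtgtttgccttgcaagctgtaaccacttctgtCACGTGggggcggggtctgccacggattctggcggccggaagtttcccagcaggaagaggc

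Nt5m and Nt5c, the mitochondrial and cytosolic deoxyribonucleotidases, prefer the monophosphates of deoxyuridine and thymidine. Nt5m was at 4.99, 4.76 and 4.91 FPKM with shlucif, and at 7.23 to 9.11 FPKM in the Arf1-deficient libraries, a rise of 0.67 (edgeR adjusted p = 5.44e-06). Nt5c was at 26.8, 22.9 and 26.3 FPKM with shlucif and at 30.4 to 36.6 FPKM in the Arf1-deficient libraries, a rise of 0.38 (adjusted p = 6.78e-04). Nt5c3b and Nt5c3, which act on CMP and UMP among others, rose by 0.37 and 0.30, and Nt5c1a rose by 0.58 from counts of 38 to 48 (edgeR adjusted p = 6.90e-05, 0.0167 and 0.0101). Nt5c1a did not pass without shlucif replicate 2 (adjusted p = 0.0573), nor Nt5c3 without shlucif replicate 1 (0.0536) or 3 (0.0553). Hddc2, annotated as a 5′-deoxynucleotidase, had a change of 0.18 (adjusted p = 0.153). Hddc2 passed with shArf1-1 alone (0.30), a call lost in 2 of 17 alternatives, and not with shArf1-2. Its pooled change passed with limma on FPKM (adjusted p = 0.0397 and 0.0391).

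Among the 7 tested di- and triphosphatase genes, 4 were lower and 2 higher, beside 32.9% and 31.6% of all genes. Entpd3, a cell-surface enzyme that hydrolyses extracellular nucleoside triphosphates, was at 40.7, 39.5 and 40.8 FPKM with shlucif, 16.4, 16.3 and 14.4 FPKM with shArf1-1, and 18.3, 17.9 and 16.5 FPKM with shArf1-2. Every Arf1-deficient library was far below the controls, and the log2 fold change of -1.34 (standard error 0.06, edgeR adjusted p = 1.71e-12) was the lowest of the 46 genes. Enpp1, a cell-surface phosphodiesterase and pyrophosphatase, was at 6.00, 6.78 and 6.72 FPKM with shlucif and at 3.15 to 3.84 FPKM in the Arf1-deficient libraries. Its change was -0.95 (standard error 0.07, edgeR adjusted p = 1.11e-09). Its relative Enpp3 fell by 0.28 (adjusted p = 2.18e-04). Nudt2, which cleaves diadenosine tetraphosphate, fell by 0.29 (adjusted p = 0.0154), a call lost with library size scaling (adjusted p = 0.0529) and without shlucif replicate 1 (0.104).

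Entpd5 and Entpd6, which work in the secretory pathway, rose by 0.34 and 0.38 (edgeR adjusted p = 3.42e-03 and 3.64e-04). Entpd1, the CD39 enzyme known from macrophages and microglia, had 17, 15 and 8 counts in the shlucif libraries and 0 in all 6 Arf1-deficient libraries. With a floor of 3 counts over the group of 6, Entpd1 was at least 26.7-fold lower, a bound that leaves out the counting error of the 40 control counts. It fell below the filter of the main test, and without the filter its edgeR adjusted p was 6.32e-07. Its pattern has the direction of the macrophage markers, and the part of such cells was not tested. Cant1, a calcium-activated nucleotidase of the Golgi, had a change of 0.03 (adjusted p = 0.779).

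Upp1, uridine phosphorylase, which releases uracil from uridine, was at 7.43, 6.55 and 7.11 FPKM with shlucif, 4.07, 4.70 and 4.05 FPKM with shArf1-1, and 4.17, 4.17 and 4.72 FPKM with shArf1-2. The controls were all higher, and Upp1 fell by 0.77 (standard error 0.12, edgeR adjusted p = 9.72e-06) with a difference of 0.01 between the hairpins. Tymp, thymidine phosphorylase, was scarce, with 7, 11 and 3 counts in the shlucif libraries, 22, 19 and 28 with shArf1-1, and 32, 29 and 23 with shArf1-2. The fitted change was 1.78 (standard error 0.36, edgeR adjusted p = 2.88e-04), and it ranged from 0.62 to 2.26 over the alternatives. Tymp passed the filter on low counts through the groups where it is higher, and it was not tested where 10 counts were asked of every library. Of the exonic bases of Tymp, 42.0% overlap Sco2 on the same strand and 26.3% a gene of the other strand, so its counts are uncertain. Pnp, purine nucleoside phosphorylase, and Upp2 had changes of 0.15 and -0.05 (adjusted p = 0.569 and 0.96), and Upp2 held 1 to 17 counts a library. Pnp shares 18.0% of its exonic bases with a gene on the same strand.

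Ring cleavage was at low levels. Dpyd, dihydropyrimidine dehydrogenase, the rate-limiting enzyme of uracil and thymine breakdown, was at 1.18, 1.03 and 1.18 FPKM with shlucif, 1.55, 1.72 and 1.65 FPKM with shArf1-1, and 1.95, 1.89 and 1.69 FPKM with shArf1-2. All Arf1-deficient libraries lay above the controls, and the log2 fold change was 0.56 (standard error 0.11, edgeR adjusted p = 2.51e-04). The enzymes that follow, Dpys and Upb1, were not tested in the main fit. Dpys had 2, 5 and 6 counts with shlucif and 0 in all 6 Arf1-deficient libraries. Upb1 had 5 to 14 counts with shlucif and 2 to 6 in the others. Without the filter on low counts and with both hairpins pooled, Dpys and Upb1 had edgeR adjusted p of 5.04e-04 and 0.0415. In the same setting but by hairpin, Dpys passed with both (edgeR adjusted p = 5.95e-03 with shArf1-1 and 4.94e-03 with shArf1-2). Upb1 passed with neither (0.0660 and 0.167).

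**Figure D4:**
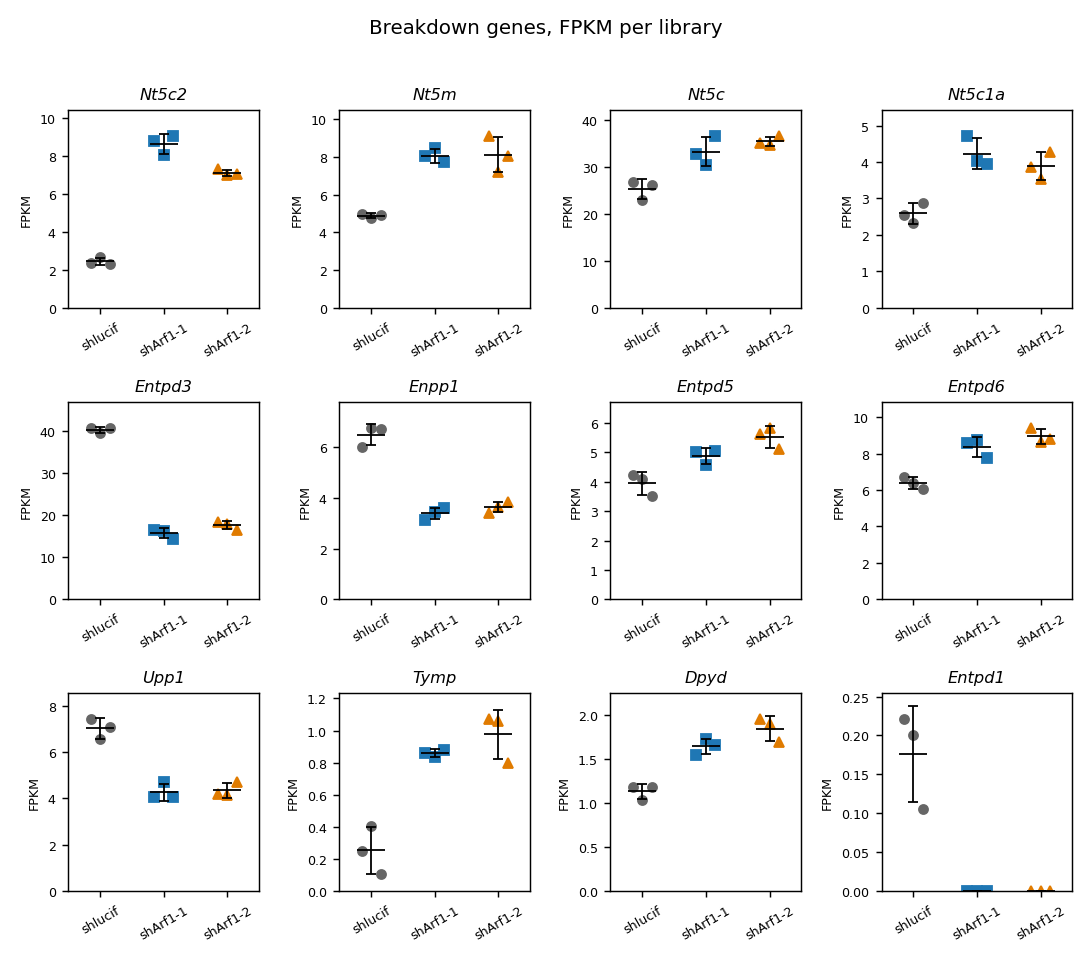
FPKM in each library (y axis from 0) of 12 breakdown genes by hairpin group (x axis), with points for libraries and black bars for the mean ± SD of 3. The 5′-nucleotidases of the top row are higher in Arf1-deficient cells, Entpd3, Enpp1 and Upp1 are lower, and Entpd1 is at 0 in the 6 Arf1-deficient libraries.

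Ratios within a library do not depend on how libraries were scaled. The ratio of Cad to Uck2, a de novo and a salvage gene, was 0.753 to 0.825 with shlucif, 0.636 to 0.734 with shArf1-1 and 0.604 to 0.622 with shArf1-2. Uck2 to Uck1 was 1.49 to 1.57 with shlucif, 2.20 to 2.5 with shArf1-1 and 2.63 to 2.96 with shArf1-2. For these pairs, and for Uck2 to Uckl1, Tk1 to Tk2 and Rrm2 to Rrm2b, no shlucif library overlapped with an Arf1-deficient library. The groups overlapped for Cmpk1 to Cmpk2 (7.01 to 11.6 with shlucif, 6.42, 5.92 and 8.34 with shArf1-1) and for Ctps to Ctps2 (2.43 to 2.89 with shlucif, 2.90, 2.86 and 3.50 with shArf1-2). Nt5c to Nt5m was 4.82 to 5.37 with shlucif and 3.59 to 4.81 in the Arf1-deficient libraries, with the groups barely apart.

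**Figure D5:**
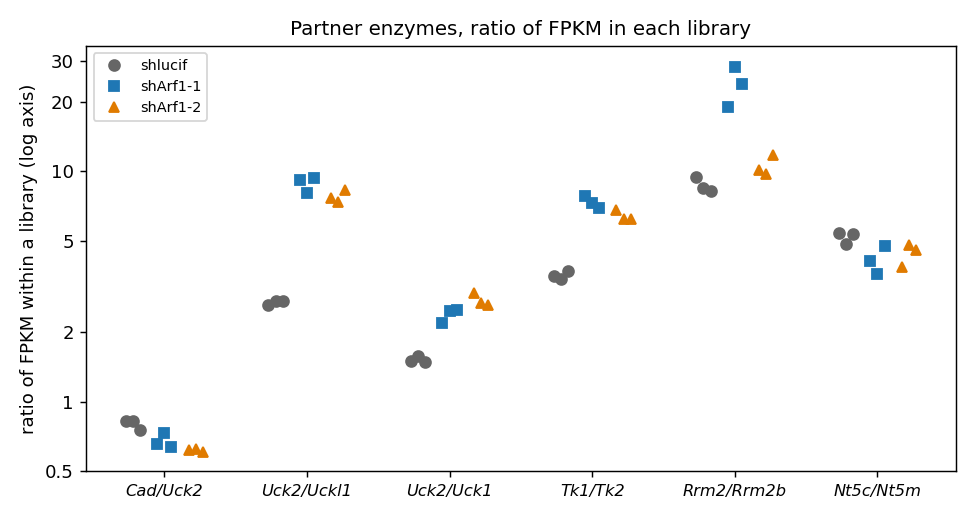
Ratio of the FPKM of 2 genes within each library (y axis, log scale) for 6 pairs of enzymes (x axis), with 1 point per library and the hairpin group by symbol. Rrm2/Rrm2b is 8.20 to 9.47 with shlucif, 19.0 to 28.3 with shArf1-1 and 9.77 to 11.7 with shArf1-2.

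Genes outside the annotation were counted for comparison. Of 18 tested genes of nucleoside transport and related reactions (21 listed), 5 had risen and 5 had fallen in the Arf1-deficient libraries. Over all genes, 31.6% were higher and 32.9% lower. The nucleoside transporter Slc29a2 changed by 0.41, the mitochondrial pyrimidine nucleotide carriers Slc25a33 and Slc25a36 by -0.41 and 0.34, and Slc29a1 by 0.0008 (edgeR adjusted p = 5.05e-03, 1.82e-04, 5.47e-03 and 0.990). Of 14 genes of purine synthesis and salvage, 7 were higher and 5 lower, beside the same shares of all genes. The largest change of the 14 was that of Adssl1, with a log2 fold change of -1.7967 (edgeR adjusted p = 1.54e-09). Ppat and Pfas, of the de novo purine route, rose by 0.71 and 0.55 (edgeR adjusted p = 3.86e-09 and 8.53e-08). Paics, of the same route, was lower, at -0.2823 (edgeR adjusted p = 6.21e-04). Impdh2, which leads to GMP, fell by 0.54 (edgeR adjusted p = 2.96e-08). Between the hairpins, 1 of the 14 purine genes passed the threshold, beside 14.4% of all genes.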

How the data were processed

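N2a cells in 3 hairpin groups were measured as 9 libraries of poly(A) RNA, enriched on oligo(dT), fragmented and primed with random hexamers. The authors deposited raw counts per gene, not normalized, and FPKM values, which equal the count divided by the gene's length and the library's total with a deviation of 0.0%. The aligner, counting tool and strand setting are not given in the sources used here. The submitters' processing notes name a mouse build, but only 514 of 21795 identifiers had the same start in GRCm38 (GENCODE M21), so coordinates were taken from that annotation by identifier. Columns named with a 2 right behind the gene's name were assigned to shArf1-2. Lines that held only the end of an annotation cell (8 lines) were left out.

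Counts were analysed with edgeR 4.0.16 in R 4.3.3 (filterByExpr, TMM, robust glmQLFit, glmQLFTest). The libraries were compared as 6 Arf1-deficient against 3 shlucif and, in a fit of 3 groups, per hairpin and between hairpins, with Benjamini-Hochberg adjustment over all 12448 genes and a threshold of 0.05. Depth limits precision for genes of few counts, and 3 counts over the group were taken as the floor behind a fold against 0. Floors cover counting error only. Replicate libraries differed by more than sampling noise (chi-square per degree of freedom 2.99 to 8.61).

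Roles were assigned from the gene names, 2 of them (Hddc2, Nt5el) after the table was seen. The rule for named genes covered de novo, salvage, phosphorylase and ring cleavage genes, up to 4 genes of each other role with the greatest change without overlap, and genes that differed between hairpins. Other named genes were picked once their values were known. The members and lists were chosen with earlier results of these data known. Alternatives were DESeq2 1.42.0, library size and upper quartile scaling, no filter, at least 10 counts in every library, a replicate block, limma 3.58.1 on log2 FPKM with a pseudocount of 1 or 0.1, the average of the hairpin contrasts, a 1.5-fold minimum and leaving out each library. Promoter windows are from RefSeq (GRCm38.p6), which held 53 of the 59 genes, and hairpin targets from the study's list of oligos.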

Additional observations from a re-analysis of the deposited data

Results flagged for a closer look

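In edgeR's test of the difference between the hairpins, 10 pyrimidine genes passed the threshold, with shArf1-2 minus shArf1-1 as the direction. The log2 differences were -0.70 for Rrm2, -0.54 for Uprt, -0.38 for Tyms, -0.33 for Umps, -0.30 for Tk1, -0.29 for Nt5c2, -0.29 for Dctpp1, -0.19 for Dut, -0.17 for Rrm1 and 0.43 for Rrm2b. Of the 46 genes tested, 9 were lower with shArf1-2 and 1 was higher, beside 7.46% of all genes lower and 6.98% higher. Of the 10, 7 passed in each of the 17 alternatives run for them. Uprt passed with every scaling and filter but not without shArf1-1 replicate 1 (-0.48, adjusted p = 0.0876) or 3 (-0.51, 0.0652), nor without shArf1-2 replicate 1 (-0.45, 0.110) or 2 (-0.52, 0.0630). Dut did not pass with limma on FPKM (adjusted p = 0.0534 and 0.0535), nor without shArf1-1 replicate 1 (0.108) or shArf1-2 replicate 1 (0.0966) or 2 (0.135). Rrm1 did not pass with limma on FPKM (0.0905 and 0.0909), nor without shArf1-1 replicate 1 (0.0802) or 3 (0.0988) or shArf1-2 replicate 2 (0.129) or 3 (0.0761).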

How the results depend on the processing

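Over the gene results recomputed, 2178 of 2267 values kept their direction and side of the threshold, 70 lost and 6 gained the threshold, and 13 changed sign. The genes past the threshold were followed through every setting except the 1.5-fold minimum. Of these pyrimidine genes, 30 of 36 (Arf1-deficient), 34 of 40 (shArf1-1), 26 of 35 (shArf1-2) and 7 of 10 (between hairpins) passed wherever they were tested. None of them changed sign. Tymp is counted among those kept, although it was not tested with at least 10 counts in every library. Asking for 1.5-fold left 12 of 36 genes (7 higher, 5 lower) and 3610 of 8027 over all genes (1528 of 3933 higher, 2082 of 4094 lower). The number higher with shArf1-2 than with shArf1-1, 1 gene, became 3 with library size or upper quartile scaling and 2 without a filter, with limma on log2(FPKM + 1) or log2(FPKM + 0.1), and with the replicate block. With library size scaling, 4555 of all genes rose and 3626 fell in Arf1-deficient cells, and 4531 and 3614 with limma on log2(FPKM + 0.1), while the number lower with shArf1-2 than with shArf1-1 went from 929 to 601 with that last setting.

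With each library left out, pyrimidine genes past the threshold numbered 32 to 36 (23 to 27 higher, 8 to 10 lower) for Arf1-deficient cells, 36 to 42 with shArf1-1, 31 to 37 with shArf1-2 and 7 to 12 between hairpins (1 to 3 higher, 6 to 9 lower). Over all genes, the hairpins differed in 1159 genes without shArf1-1 replicate 1 to 1977 without shArf1-1 replicate 2 (570 to 1008 higher, 580 to 988 lower), and in 1194 without shArf1-2 replicate 1. Rrm2 passed in the pooled comparison with the average of the hairpin contrasts (0.14, adjusted p = 0.0270). The changes of sign were in Upp2, Cant1 and Pnp, which never passed. Upp2 held 1 to 17 counts a library, and its direction is not determined. Upp2, -0.05, went to 0.0153 with library size scaling, 0.0018 with limma on log2(FPKM + 1) and 0.0137 with the replicate block, and with each library left out it ranged from -0.5411 to 0.4437. Left out in turn, libraries moved Cant1 between -0.0205 and 0.0744 and Pnp between -0.0174 and 0.2987. The cause was not tested.

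Libraries that share a replicate number showed no common deviation (correlation -0.0822 to 0.0941 over 9 pairs, mean 0.007, 0 above 0.1), so the numbers were not used as a pairing. With the replicate number as a block, 36 pyrimidine genes passed for Arf1-deficient cells, 40 with shArf1-1, 36 with shArf1-2 and 11 between the hairpins, and over all genes 7808, 8431, 7939 and 1809. Counts of a few reads limit Tymp, Upp2, Dpys, Upb1 and Entpd1, whose changes are known only coarsely at this depth.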
